A study of Drosophila melanogaster with 3 samples.

Results

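The peaks described here are the 572 regions on chromosome arm 3L of Drosophila melanogaster at which chromatin precipitated with GFP-tagged Deformed was called as enriched. They are all the rows of the deposited list whose sequence name is exactly 3L, of 3159 peaks in all, and the heterochromatic scaffold 3LHet was left out. The membership rule used position alone, so scores, widths and spacing did not choose among the listed peaks. The list itself has a lowest score of 50, so weaker regions are not in it.

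Chromatin immunoprecipitation and sequencing (ChIP-seq) had been done on flies of the labelled stock y w, VK37 with Deformed fused to GFP (green fluorescent protein), using the antibody NWG-GFP against the tag. The stage carries only the code 10T-W3L, with no plain-language stage beside it, while the growth protocol speaks of collected embryos. The labels give 1 ChIP sample, whose title covers replicates 1 and 2 together, and 2 input samples, chromatin of the same stage kept back before precipitation. Input values were not analysed here, so the 572 peaks have no replicate error and no control level beside them. Read depth is unknown. A tagged protein reports where the fusion protein lies, and whether untagged Deformed lies at the same places was not tested.

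Deformed is a Hox protein, one of the homeodomain transcription factors that give body segments their identity along the head-to-tail axis. It specifies the mandibular and maxillary segments of the fly head, and its gene lies in the Antennapedia complex on arm 3R. Hox homeodomains read short AT-rich DNA sites, and cofactors such as Extradenticle and Homothorax bind beside them and sharpen their choice of site. Arm 3L is the left arm of the third chromosome. Its coordinates run from the telomere (distal) to the centromere (proximal), as those of 2L and X do, and those of 3R run the other way.

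Positions are those of BDGP5 (Release 5), counted from 1. The gene table used here is of Release 6, so no 3L peak was assigned to a gene and no DNA sequence of a peak is shown. The score of a peak is the authors' own value from the peak caller MACS and served only to rank or filter peaks within the list. No test was made between arms or along 3L, because 1 list holds no replicates and neighbouring peaks are not independent. The exact Clopper-Pearson intervals at 95% given for shares treat each peak as 1 count, cover counting error only and are too narrow for grouped peaks.

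The 3L peaks ran from 45281 to 23338988, a span of 23.3 Mb with 24.6 peaks per Mb. They made up 23.1% of the peaks on 3L, 2L, 3R and X together (interval 21.5 to 24.8). Density on 2L was 21.0 peaks per Mb, on 3R 23.4 and on X 34.7. By density over the span from first to last peak, 3L was thus second of these 4 arms. Arm lengths were not used, and the order of 3L and 3R, whose values lie close, could change with them. The 3L peaks covered 437 kb, or 1.88% of their span, against 1.56% on 2L, 1.80% on 3R and 2.47% on X.

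Between the first and the last peak, 3L had peaks in every 1 Mb bin. The fullest adjoining bins lay near the middle of this span, and other bins with more than 30 peaks lay apart from them. Bins beyond the last peak were not counted, because the length of the arm was not used. Each peak was placed by its centre in fixed bins counted from position 1. From the distal end the bins held 19, 23, 26, 25, 22, 35, 16, 22, 21, 38, 46, 26, 25, 15, 23, 17, 26, 32, 18, 21, 17, 22 and 29 peaks. The last bin held 8. It is called incomplete only because the last peak ended inside it, at 23338988, and the arm may run on. The 23 complete bins averaged 24.5 ± 7.49 peaks (mean ± SD over bins), with a median of 23. Of them 13 held 20 to 30 peaks, 6 held fewer than 20 and 4 held more than 30.

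The fullest bin, 3L:10000001-11000000, held 46 peaks that covered 33.9 kb. The bin distal to it, 3L:9000001-10000000, came next with 38 peaks, followed by 3L:5000001-6000000 with 35. At the low end of the complete bins, 3L:13000001-14000000 held 15 peaks and 3L:6000001-7000000 held 16. Both 3L:15000001-16000000 and 3L:20000001-21000000 held 17. The fullest and the emptiest complete bin thus differed 3.07-fold.

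**Figure D1:**
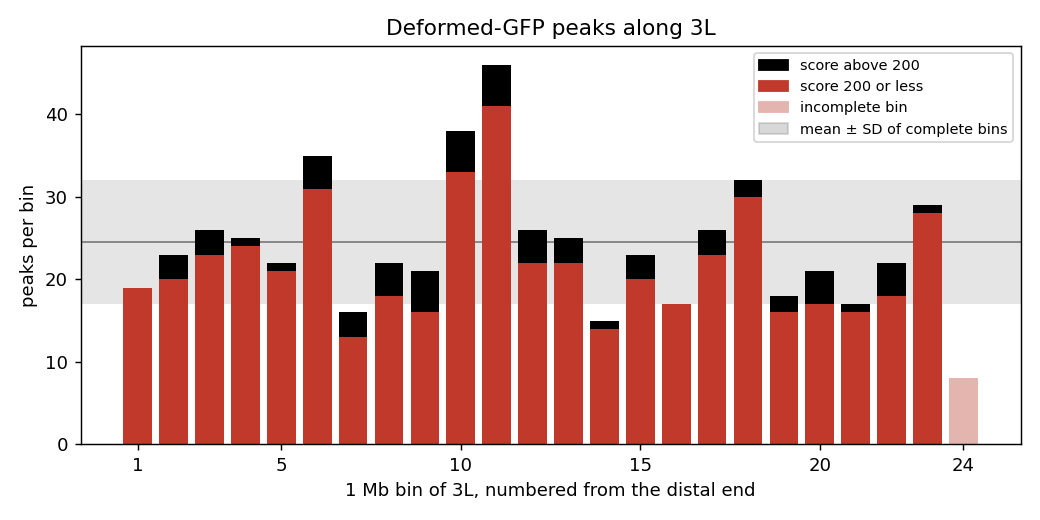
Peaks per 1 Mb bin of 3L (vertical axis, number of peaks), with bins numbered from the distal end (horizontal axis). Black marks peaks scoring above 200, and the grey line and band give the mean ± SD of the 23 complete bins (24.5 ± 7.49). The paler last bin is called incomplete because the last peak ended inside it. Bins 10 and 11 stand highest, with 38 and 46 peaks.

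Bins 10 and 11 together, 3L:9000001-11000000, held 84 peaks, which is 14.7% of the 3L peaks in 8.59% of the span. The other 21 complete bins averaged 22.9 ± 5.16 peaks (SD over bins) and ranged from 15 to 35. This 2 Mb stretch was singled out after its counts were seen. The variance of the counts over their mean, a measure of unevenness, was 2.29 over all 23 complete bins of 3L. On 2L the ratio was 1.66 (bins of 7 to 30 peaks), on 3R 2.37 (10 to 39 peaks) and on X 3.06 (10 to 53 peaks). The counts of successive 1 Mb bins were nearly unrelated on 3L (Spearman's rho 0.065 over the 23 complete bins, a description that shares 1 library).

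With the span cut into 3 equal parts of 7.76 Mb, the distal part of 3L held 182 peaks, the middle part 210 and the proximal part 180. These are densities of 23.4, 27.05 and 23.2 peaks per Mb. Without 3L:9000001-11000000, the rest of the middle part held 126 peaks, or 21.9 per Mb. The distal 50% of the span held 316 of 572 peaks (55.2%, interval 51.1 to 59.4). That is 27.1 peaks per Mb in the distal 50% and 22.0 in the proximal 50%, and the distal value was 24.05 without the same 2 Mb. The corresponding distal shares were 53.4% on 2L (interval 48.9 to 58.0), 50.3% on 3R (46.4 to 54.2) and 52.8% on X (49.2 to 56.3), and all of these intervals overlap that of 3L.

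Within the span of the 3L peaks, density did not fall away steadily towards the centromere. The last complete bin, 3L:22000001-23000000, held 29 peaks, the fifth highest count of the arm. Only 8 peaks lay beyond it, and they ended at 23338988. The part of the arm proximal to them enters none of these densities. On 2L the distal, middle and proximal parts had 23.0, 20.1 and 19.8 peaks per Mb, on 3R 22.4, 27.4 and 20.3, and on X 34.6, 38.0 and 31.5. The middle part was the densest on 3L, 3R and X, whereas on 2L it was the distal part.

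At the finer scale of 100 kb, most stretches of 3L held a few peaks and some held none or many. Of the 234 bins from the first to the last peak, 41 (17.5%) were empty, 54 held 1 peak, 42 held 2, and 55 held 3 or 4. The remaining 42 bins (17.9%) held 5 or more and together carried 253 peaks, 44.2% of the arm. The mean was 2.44 ± 2.09 peaks per bin (SD over bins) and the variance over the mean was 1.78. Empty bins made up 21.4% on 2L, 17.2% on 3R and 10.7% on X, and bins of 5 or more peaks 10.9%, 15.1% and 28.1%.

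**Figure D2:**
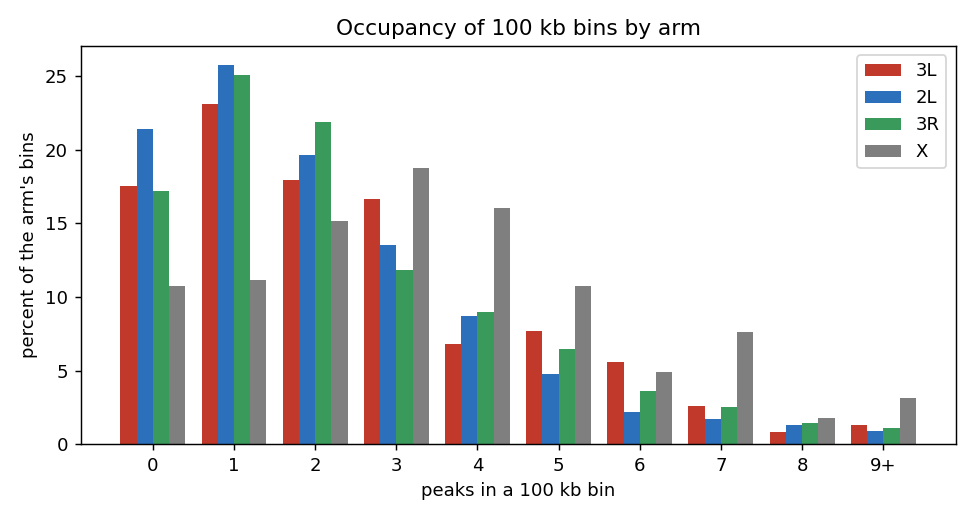
Percent of each arm's 100 kb bins (vertical axis) that held 0 to 8, or 9 and more, peaks (horizontal axis), for 3L, 2L, 3R and X. On 3L 17.5% of bins were empty and 17.9% held 5 or more peaks, whereas X had 10.7% empty bins and 28.1% of 5 or more.

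Among the 5 fullest 100 kb bins of 3L, 3 held 9 peaks each. Those in 3L:10800001-10900000 scored 156 at the median and 323.34 at most. In the adjoining 3L:10700001-10800000 the median score was 74.9 and the top score 217.61. In 3L:9800001-9900000 the values were 156 and 214.4. The other 2 of these bins, 3L:11500001-11600000 and 3L:2800001-2900000, held 8 peaks each, with median scores of 135 and 88.2. The fullest 100 kb bins thus differed in how highly their peaks scored, and none held a peak scoring above 323.34. The single fullest bin held 10 peaks on 2L, 11 on 3R and 13 on X.

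Within the fullest 1 Mb bin the peaks were unevenly placed. From its distal edge the 100 kb bins held 2, 0, 4, 3, 3, 4, 7, 9, 9 and 5 peaks. The 300 kb from 10600001 to 10900000 carried 25 of its 46 peaks (54.3%). The 84 peaks of bins 10 and 11 had a median score of 94.7, against 81.2 for the other 488 peaks of 3L. Scores above 200 were reached by 10 of the 84, and by 62 of all 572 (10.8%). Median scores of 1 Mb bins did not follow their counts. They were 104 in bin 10 and 88.7 in bin 11, but 97.0 in 3L:12000001-13000000 with 25 peaks and 66.3 in 3L:5000001-6000000 with 35.

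**Figure D3:**
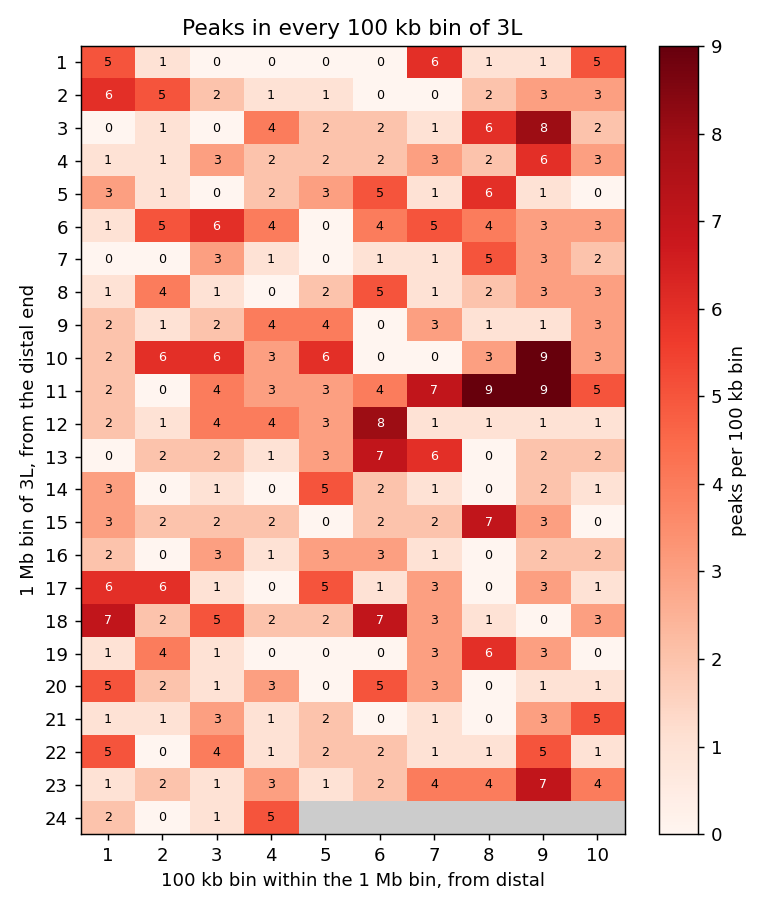
Number of peaks in every 100 kb bin of 3L (colour and printed number), with 1 Mb bins down the page from the distal end and the 10 bins of 100 kb within each across it. Grey cells lie beyond the last peak. The 3 bins with 9 peaks stand in rows 10 and 11, and the 4 successive empty bins in row 1.

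Empty stretches occurred near the distal tip and at several places further in. Between the first and the last peak, the longest run of empty 100 kb bins, 4 in a row, lay at 3L:200001-600000. The only other run of 3 or more lay at 3L:18300001-18600000. Any empty stretch beyond the last peak was not counted. The empty bins that were counted were spread along the span, with 15 in the distal, 12 in the middle and 14 in the proximal part. The longest gap between consecutive peaks was 471 kb, from 136521 to 607959. It parted a peak scoring 55.79 from one scoring 134.78. The next 4 gaps were 401 kb (18232585 to 18633602), 307 kb (5948572 to 6255716), 294 kb (4800445 to 5094567) and 248 kb (1460374 to 1708709).

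Of the 5 longest gaps, 4 began in the 6 most distal bins of 1 Mb, and the peaks on either side of the 5 scored from 51.02 to 134.78. The longest gap was 571 kb on 2L, 318 kb on 3R and 369 kb on X. On 3L, 57 gaps were longer than 100 kb and together took up 9.54 Mb, or 41.0% of the span, against 48.1% on 2L, 43.0% on 3R and 24.9% on X. Peaks with more than 100 kb free on both sides were rare, at 8 of 572 (1.40%), and scored between 51.02 and 98.42. Such peaks numbered 11 on 2L (2.30%), 14 on 3R (2.15%) and 2 on X (0.26%). Their highest scores were 197.51, 1223.59 and 740.53.

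The typical 3L gap was 21.3 kb (median of 571 gaps, quartiles 6.57 and 51.1 kb), and the mean was 40.03 kb. Medians were 25.4 kb on 2L, 22.3 kb on 3R and 15.4 kb on X. The SD of the 3L gaps was 1.34 times their mean, against 1.33 on 2L, 1.24 on 3R and 1.37 on X. Short gaps were common beside the long ones, since 123 of 571 (21.5%) were under 5 kb and 42 (7.36%) under 1 kb. Gaps under 5 kb made up 20.5% on 2L, 18.9% on 3R and 25.1% on X.

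**Figure D4:**
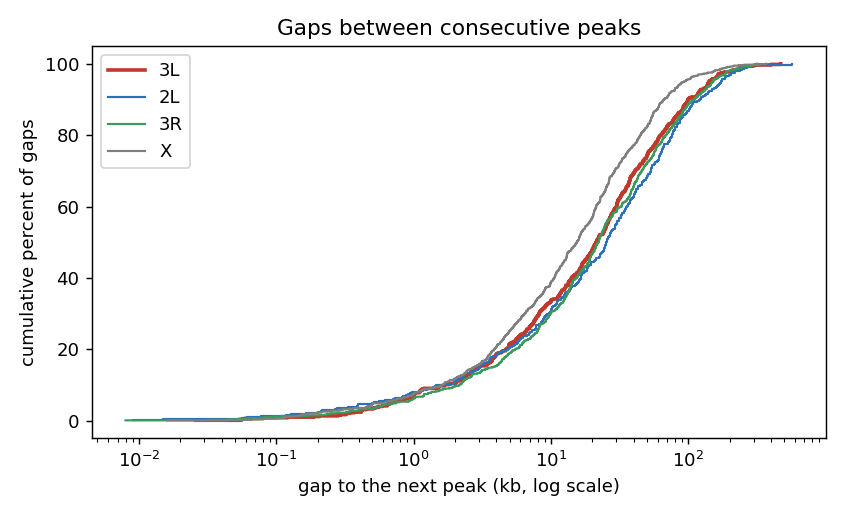
Cumulative percent of gaps (vertical axis) against the gap to the next peak in kb (horizontal axis, log scale), for 3L, 2L, 3R and X. The curve of 3L has its median at 21.3 kb, between those of X at 15.4 kb and of 3R at 22.3 kb.

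Of the 572 peaks of 3L, 197 had another centre within 5 kb (34.4%, interval 30.5 to 38.5). The share was 34.7% on 2L, 28.4% on 3R and 38.0% on X, so 3L was close to 2L and below X. The nearest centre was 9.17 kb away at the median on 3L. That median was 10.9 kb on 2L, 11.5 kb on 3R and 7.20 kb on X. With the upper 50% of scores of the whole list taken alone, 22.1% of the 294 peaks of 3L had another such peak within 5 kb, against 16.7% on 2L, 17.1% on 3R and 21.5% on X. In the upper 25% of scores, 147 peaks lay on 3L, and 18.4% of them had another such peak within 5 kb. That share was 6.96% of 115 peaks on 2L, 10.8% of 167 on 3R and 10.2% of 176 on X. Close peaks were not joined in these subsets. Whether these shares differ beyond the grouping of the peaks was not tested.

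Chaining peaks whose successive centres lay at most 5 kb apart gave 375 lone peaks, 68 pairs and 19 groups of 3 or more on 3L. The 19 groups held 61 peaks (10.7%), as 16 groups of 3, 2 of 4 and 1 of 5, and spanned 3.16 to 12.9 kb with a median of 5.51 kb. Groups of 3 or more held 10.4% of peaks on 2L, 8.74% on 3R and 13.2% on X. Of the 19 groups on 3L, 4 lay in bins 10 and 11.

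The largest 3L group, of 5 peaks, lay at 3L:2823859-2835411, and its central peak scored highest with 239.34. The 2 groups of 4 stood at 3L:23319241-23329188, near the proximal end of the list, and at 3L:5312777-5325717. Their highest scores were 134.33 and 97.35. Of the groups of 3, the one with the highest score stood at 3L:12685431-12694624, where a peak scoring 1044.42 lay between 2 others, the lowest of which scored 59.05. The next stood at 3L:5260613-5265312 with a highest score of 577.16.

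Grouped and lone peaks scored about alike. Median scores were 84.8 in groups of 3 or more, 83.3 in pairs and 81.7 among lone peaks, and median widths were 743, 689 and 698 bp. Scores above 200 were reached by 8 of 61 peaks (13.1%) in those groups, 15 of 136 (11.03%) in pairs and 39 of 375 (10.4%) alone. Within the 19 groups the highest score sat at an end of the run in 11 and inside it in 8, and in 6 of the 16 groups of 3 it was the middle peak. In 6 groups no peak reached a score of 100, and in 6 the highest scored above 200.

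The 42 neighbours under 1 kb apart had a median gap of 528 bp, and 5 were under 100 bp. The closest, 26 bp apart, were at 3L:10691639-10692295 with a score of 54.31 and at 3L:10692322-10692905 with a score of 63.67. Another 2 pairs lay 56 bp apart, at 5260613 to 5262212 (scores 80.17 and 157.21) and at 10845979 to 10848114 (scores 206.14 and 323.34). The higher score of a pair was at the median 1.55 times the lower, over 2 times in 13 pairs, and 11.3 times at most. Splitting of 1 region by the caller was not tested. Joining all peaks with less than 1 kb between them gave 530 regions on 3L. Of these, 23.4% had another centre within 5 kb, against 22.7% on 2L, 18.5% on 3R and 27.1% on X, and 3L then had 7 groups of 3 or more.

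The widths of 3L peaks centred on 703 bp (quartiles 622 and 838 bp, range 404 to 4109 bp). Medians were 685 bp on 2L, 706 bp on 3R and 665 bp on X. The widest peak, at 3L:14017080-14021188, was 4109 bp wide with a score of 560.25. The next were 2614 bp at 3L:19835646-19838259 (score 576.37) and 2496 bp at 3L:6742042-6744537 (score 355.58). These 3 had no other centre within 5 kb. The widest peak was 1978 bp on 2L, 2461 bp on 3R and 2308 bp on X. With peaks under 1 kb apart joined, the widest region was 4109 bp on 3L, 3763 bp on 2L, 4699 bp on 3R and 4137 bp on X. The narrowest 3L peaks were 404 bp at 3L:16479137-16479540, 407 bp at 3L:3500356-3500762 and 417 bp at 3L:11331340-11331756, and scored 50.58, 51.57 and 55.33.

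Score and width ran together on 3L, with a Spearman's rho of 0.716 over 572 peaks, against 0.715 on 2L, 0.708 on 3R and 0.775 on X. The caller gives both values, and the relation describes the list only. By score class the median widths were 619 bp under 75, 709 bp from 75 to 100, 798 bp from 100 to 200, 952 bp from 200 to 500 and 1055 bp above 500. Of the 60 peaks wider than 1000 bp, 47 scored above 100 and 29 above 200. Of the 28 narrower than 500 bp, 2 scored above 100 and 0 above 200.

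**Figure D5:**
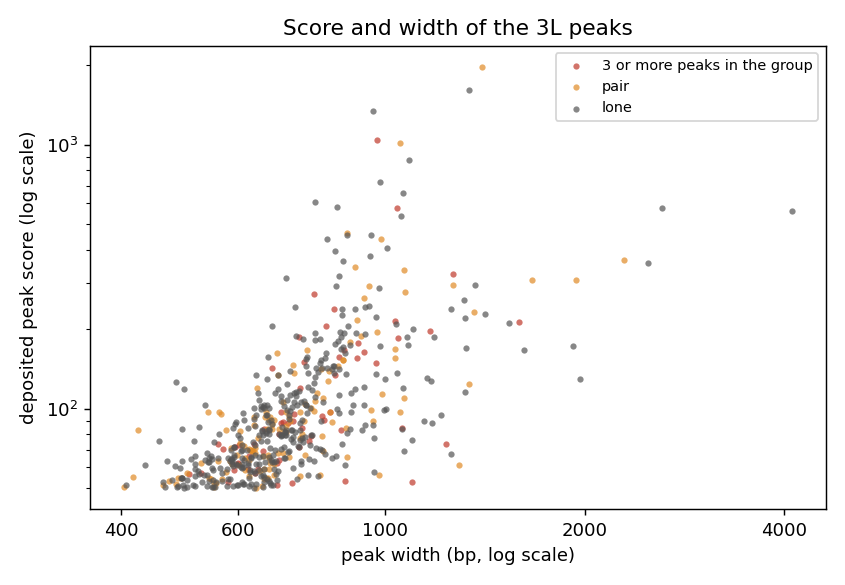
Deposited score (vertical axis, log scale) against width in bp (horizontal axis, log scale) for the 572 peaks of 3L, coloured by whether a peak was lone, in a pair or in a group of 3 or more. Higher scores go with wider peaks, the 4109 bp peak stands apart at the right, and the 3 colours overlap.

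Low scores made up most of the 3L list. The lowest was 50.02, the median 82.8 (quartiles 62.8 and 126) and the highest 1968.08, and 373 peaks (65.2%) scored under 100. Median scores were 83.8 on 2L, 79.5 on 3R and 80.3 on X. Scores above 500 were reached by 14 peaks on 3L (2.45%), 6 on 2L (1.25%), 12 on 3R (1.84%) and 14 on X (1.81%). Scores above 1000 were reached by 5 peaks on 3L, 1 on 2L, 4 on 3R and 1 on X.

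The 10 highest scoring 3L peaks lay in 9 different 1 Mb bins and were 786 to 1402 bp wide. The highest, at 3L:5533189-5534590, scored 1968.08, was 1402 bp wide and ranked second in the whole list. Distal to it lay a gap of 207 kb, and proximal to it the next peak began after 1.02 kb. The second, at 3L:9143940-9145279, scored 1614.46 and had no other centre within 5 kb but 6 within 50 kb. The third, at 3L:20815990-20816948, scored 1343.55 and stood alone within 50 kb, with 185 kb free distal to it and 79.1 kb proximal.

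The other peaks above 1000 lay in the same 1 Mb bin, 3L:12000001-13000000. They stood at 3L:12689293-12690264 with a score of 1044.42, inside a group of 3, and at 3L:12115645-12116698 with 1014.1, paired with a peak 646 bp away. Ranks 6 to 10 on the arm stood at 3L:13975260-13976345 (873.68), 3L:16045591-16046573 (720.66), 3L:19136661-19137725 (655.26), 3L:1321920-1322705 (608.23) and 3L:6877753-6878598 (579.31). Each of these 5 had no other centre within 5 kb.

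The highest scoring peaks of 3L stood in both fuller and emptier places, the first and second of them in the 1 Mb bins with 35 and 38 peaks and the third in one with 17. Of the 10 highest peaks, 3 had another centre within 5 kb and 2 stood alone within 50 kb, with a median of 2 others in that distance, against a median of 3 for all 572. The share with a centre within 5 kb was 28.6% above a score of 500, 39.6% from 200 to 500, 28.5% from 100 to 200, 39.4% from 75 to 100 and 34.4% under 75. It followed no order of score. The scores of neighbours within 5 kb were nearly unrelated, with a rho of 0.072 over 110 pairs.

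Peaks scoring above 200, 62 on 3L, were found in 21 of the 23 complete 1 Mb bins, with at most 5 in a bin. The 2 bins without one were the first, 3L:1-1000000, where the highest score was 174.14, and 3L:15000001-16000000, where it was 111.48. By part of the span there were 17 distal, 28 middle and 17 proximal. Their median spacing was 248 kb, against 205 kb on 2L, 230 kb on 3R and 210 kb on X. Between the first and the last such peak, the longest stretch of 3L with none was 1.94 Mb, between the centres at 14106284 and 16046082. The same measure gave 2.03 Mb on 2L, 2.27 Mb on 3R and 1.57 Mb on X. Stretches outside the first and the last such peak of an arm were not counted. Of the 62, 10 (16.1%) had another such peak within 20 kb. These were 2 of 46 on 2L (4.35%), 8 of 69 on 3R (11.6%) and 8 of 68 on X (11.8%). The counts are small, and close peaks were not joined for them.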

How the data were processed

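The material was 1 list of peaks from Deformed-GFP ChIP-seq. Fixation in 1.8% formaldehyde and sonication came first, per the labels' protocols. Reads were aligned with Bowtie to BDGP5, per the submitters' processing notes, and the caller was MACS, per the file headers. Its version, control and limit, and how the replicates were combined, are not stated there. Deposited scores are the authors' values on an unstated scale with a lowest value of 50, so weaker regions are not listed. From the deposited starts and ends, widths, centres, gaps, fixed bins of 1 Mb and 100 kb and groups were computed with Python 3.11.15, pandas 2.3.3 and scipy 1.17.1. Arm lengths were taken as the span from first to last peak, which can make densities too high, by amounts that can differ between arms. The routines were tested on simulated lists with known groups. Regions are named by a fixed rule, the extremes of score, width, bins, groups and gaps. The closest pairs, runs of empty bins, bins without high scores and the fullest 2 Mb and 300 kb were named after their values were seen. The members and measures were chosen with earlier results of these data known. No test was used. Alternatives were higher score limits, joined peaks, moved bins, other distances and added heterochromatic scaffolds.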

Additional observations from a re-analysis of the deposited data

Results flagged for a closer look

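Outside the arm, the heterochromatic scaffold 3LHet carried 10 peaks, which none of the values on 3L use. They were set apart because they lie outside the main measurement. They spread over 1.82 Mb, from 598905 to 2423287, or 5.48 per Mb against 24.6 per Mb on 3L. The length of the scaffold was not used and how well reads align there was not examined, so these densities are not directly comparable. The lowest score among the 10 peaks was 54.47, the median 70.4 and the highest 189.77, and their median width was 641 bp.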

How the results depend on the processing

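Of 40 alternatives over 11 results, 22 left the value within its interval, or within 1.5 times for counts, medians and rho. The share of 3L peaks with another centre within 5 kb was 34.4% with all peaks, 22.1% in the upper 50% of scores (294 peaks), 18.4% in the upper 25% (147 peaks) and 23.4% after joining. It was 15.9% at 2 kb, 52.6% at 10 kb and 69.8% at 20 kb. Groups of 3 or more numbered 19 at first, 5 in the upper 50%, 1 in the upper 25%, 7 after joining, 3 at 2 kb and 50 at 10 kb. With fewer peaks in the upper 50% and 25%, the fullest 1 Mb bin held 27 and 14 peaks, 88 and 141 bins of 100 kb were empty, and the median gap was 42.5 and 93.6 kb. In the upper 25%, rho of score and width was 0.454. Moving the 100 kb bins by 50% gave 12 peaks in the fullest, against 9 unmoved. Depth is unknown, so what it limits was not examined. No paired analysis was possible because 1 list stands for both ChIP replicates and input values were not used.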
